A study of Mus musculus with 4 samples.

Results

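The Toll-like receptor genes analysed here are the 10 mouse genes Tlr1, Tlr2, Tlr3, Tlr4, Tlr5, Tlr6, Tlr7, Tlr8, Tlr9 and Tlr13, out of 22159 protein-coding genes and 46078 genes in the deposited gene annotation. They were chosen by name and grouped by where the receptor is known to work. Tlr1, Tlr2, Tlr4, Tlr5 and Tlr6 are the 5 receptors counted here as those of the cell surface. Tlr3, Tlr7, Tlr8, Tlr9 and Tlr13 are the 5 counted here as those of endosomes. All 10 symbols were found once. The deposited file holds gene models on the mouse genome build GRCm38 and no value of any library, so every result below describes how these genes are built and placed. Expression of the receptors was not analysed here, the depth of the libraries is unknown, and the labelled cell type could not be checked against its markers.

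The study sequenced polyadenylated RNA of bone marrow-derived macrophages from C57/BL6 mice, in 4 libraries with 1 library for each of 4 groups. All donors carried a floxed Piezo1 gene, which encodes a mechanically gated cation channel. Control cells had the genotype Piezo1 fl/fl without Cre. The other cells were labelled Piezo fl/fl, LysM Cre+, with Cre driven from the lysozyme 2 locus, which is active in myeloid cells. Cells of both genotypes, grown with M-CSF at 50 ng/mL, were held for 6 h in a pressure chamber, either at static pressure or under cyclic pressure with an amplitude of about 15 mmHg. Paired reads of 75 bases were made.

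Toll-like receptors are membrane proteins that sense molecules of microbes. The part outside the cytoplasm is a horseshoe of leucine-rich repeats that binds the ligand, a single helix crosses the membrane, and a cytoplasmic TIR domain recruits adaptors. Surface receptors bind mostly lipids and proteins of bacteria, such as lipopeptides (Tlr2 with Tlr1 or Tlr6), lipopolysaccharide (Tlr4) and flagellin (Tlr5). Endosomal receptors bind nucleic acids: double-stranded RNA (Tlr3), single-stranded RNA or its breakdown products (Tlr7 and Tlr8), unmethylated CpG DNA (Tlr9) and bacterial ribosomal RNA (Tlr13). Macrophages are a classical site of action of both groups.

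The start of the reading frame is shown first, because in 3 endosomal receptors (Tlr7, Tlr8 and Tlr9) an exon border lies there. Each line gives 12 bases before the start codon, the start codon in capitals and 15 bases after it, read 5′ to 3′ along the spliced RNA of the transcript that stands for the gene. That transcript is the protein-coding one with the longest coding sequence. The bases come from the GENCODE M21 transcripts of the same build.
Tlr1: tatggccatacaATGactaaaccaaattcc
Tlr2: aaatctcagaggATGctacgagctctttgg
Tlr4: gaaaatgccaggATGatgcctccctggctc
Tlr5: tgcagctcatggATGgatgctgagttcccc
Tlr6: atgctgtgaagaATGgtaaagtccctctgg
Tlr3: ctgggctgaatcATGaaagggtgttcctct
Tlr7: cacaatcacgtcATGgtgttttcgatgtgg
Tlr8: tgtctatagaacATGgaaaacatgccccct
Tlr9: ccatctcccaacATGgttctccgtcgaagg
Tlr13: gcagagttcagaATGagtgggctctacagg

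In Tlr7, Tlr8 and Tlr9 an exon ends directly after the ATG, so that the capitals and the 15 bases that follow come from different exons. In the 7 other lines the ATG and the bases after it lie in the same exon. A purine stood 3 bases before the start codon in 4 of 5 surface and 5 of 5 endosomal receptors, the exception being Tlr5. This is close to the 84% found over the 14881 genes whose start could be read, and reads as no feature of the family. A G directly followed the ATG in 2 surface receptors (Tlr5 and Tlr6) and in 3 endosomal receptors (Tlr7, Tlr8 and Tlr9), against 49% of genes.

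At the cell surface, 3 of 5 receptor genes keep the whole coding sequence in 1 exon. Tlr2, the common partner in lipopeptide recognition (chromosome 3, 83836272 to 83841767, minus strand), has its 2352 coding bases, or 784 codons without the stop codon, in the last of 3 exons. Tlr1, its partner for triacylated lipopeptides (chromosome 5, 64924679 to 64933563, minus strand), has 2385 coding bases in the last of 4 exons. Tlr6, its partner for diacylated lipopeptides (chromosome 5, 64952031 to 64960097, minus strand), has 2418 coding bases in the second of 2 exons. Of the 22111 protein-coding genes with a coding transcript, 16.8% had a single coding exon. Of those 3706 genes, 34.9% were olfactory or vomeronasal receptors by symbol. Among the 5226 genes with at least 2000 coding bases, the size class of all 10 receptors, 3.46% had a single coding exon.

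Tlr5, the flagellin receptor (chromosome 1, 182954788 to 182976044, plus strand), has 2 coding exons. The first holds 38 coding bases and the second 2581, which is 98.5% of the 2619 coding bases. Tlr4, the lipopolysaccharide receptor (chromosome 4, 66827584 to 66930284, plus strand), is the most divided of the surface group. Its 3 coding exons hold 90, 167 and 2248 bases, so that 89.7% of 2505 coding bases lie in the last. Both introns of Tlr4 inside the coding sequence are long, with 5972 and 5168 bases, whereas the coding intron of Tlr5 has 698.

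Among the endosomal receptors, 0 of 5 genes have a single coding exon, yet the extra exon is often minute. Tlr7 (chromosome X, 167304929 to 167330558, minus strand) splits its 3150 coding bases into 3 and 3147. Tlr8 (chromosome X, 167242696 to 167264329, minus strand) splits 3096 into 3 and 3093, and Tlr9 (chromosome 9, 106222598 to 106226883, plus strand) has these same 3 numbers. In each of them the first coding exon contributes the start codon alone and the other exon carries 99.9% of the coding bases. The intron right behind the start codon measures 303 bases in Tlr7, 17899 in Tlr8 and 808 in Tlr9, so its position is shared while its length is not. Tlr13, the sensor of bacterial ribosomal RNA (chromosome X, 106143204 to 106160493, plus strand), has 36 coding bases in the first coding exon and 2937 in the second, or 98.8%. An intron of 9081 bases lies between them.

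Tlr3, the sensor of double-stranded RNA (chromosome 8, 45395665 to 45410608, minus strand), departs from all the others. Its 2715 coding bases are spread over 4 exons with 444, 192, 1853 and 226 bases. The largest holds 68.3%, and it is the only one among the 10 genes whose largest coding exon is not the last. For the threshold of 2000 bases in 1 coding exon, Tlr3 was just outside with 1853 bases and Tlr4 just inside with 2248. Exons of this size were present in 5 of 5 surface and 4 of 5 endosomal receptors, against 3.16% of protein-coding genes (698 genes). Only genes with at least 2000 coding bases can hold such an exon. All 10 receptors are of that size, but only 5226 of 22111 genes are, so the 3.16% is taken over many genes too short to qualify. Among genes of that size the share is larger, 698 of 5226.

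**Figure D1:**
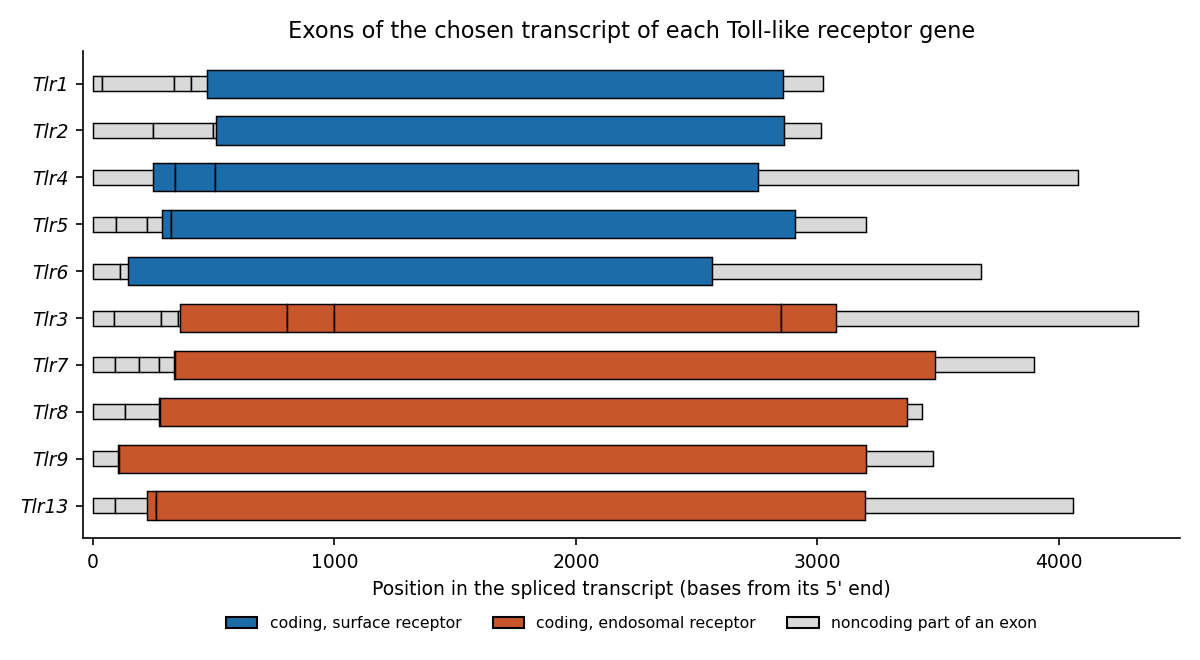
Exons of the transcript chosen for each receptor gene, drawn to scale along the spliced RNA in bases from its 5′ end; tall coloured boxes are coding, low grey boxes noncoding, and vertical lines are exon borders. Tlr1, Tlr2 and Tlr6 have 1 coding box, Tlr3 has 4, and the 3-base coding exons of Tlr7, Tlr8 and Tlr9 are narrower than the drawn line.

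Set side by side, the 2 groups differed in the number of coding exons and in coding length, and little in how concentrated the coding sequence was. Surface receptors had 1 to 3 coding exons with a median of 1, and endosomal receptors had 2 to 4 with a median of 2, while the median over all genes was 6. At least 95% of the coding sequence lay in 1 exon in 4 of 5 receptors of either group, against 17.7% of genes, and the exceptions were Tlr4 and Tlr3. The median share in the largest coding exon was 100% at the surface, 99.9% in endosomes and 33.5% over all genes. Coding length ran from 2352 to 2619 bases at the surface and from 2715 to 3150 in endosomes, so the ranges did not overlap. They come close, with 2619 in Tlr5 and 2715 in Tlr3. Both ranges lie above the median of 1164 bases over all protein-coding genes. The group medians were 806 codons at the surface and 1032 in endosomes. Members of a gene family are not replicates of a condition and an annotation has no sampling error, so no test was made of these differences.

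A first coding exon that holds the start codon alone is rare. It was found in 0 of 5 surface and 3 of 5 endosomal receptors, against 1.4% of the 21618 genes with an annotated start codon (302 genes). Most such genes go on with many exons. Only 17 of the 302 gene models have 2 coding exons in all, and ranked by the size of the other coding exon the first 3 are Tlr7, Tlr8 and Tlr9. The next is Zbtb14, a zinc finger gene, with 1344 bases. The ranking was made after the values were seen. Among the other models of this kind is Cd14, the co-receptor that hands lipopolysaccharide to Tlr4, with 3 and 1095 coding bases. C5ar1, the receptor of the complement fragment C5a, has 3 and 1050.

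Every protein-coding transcript of Tlr9 (1 of 1), 2 of 3 of Tlr8 and 4 of 5 of Tlr7 have the start codon alone in an exon. Tlr7 has this arrangement from 2 different exons. In Tlr7-002 the start codon lies at 167308789 to 167308791, and in Tlr7-001 and Tlr7-006 it lies 21212 bases farther upstream, at 167330001 to 167330003. Both are joined to the same 3147 coding bases, so the predicted protein of 1050 residues is the same. The window of Tlr7-001 is shown against that of Tlr7-002 because only the bases before the ATG change.
Tlr7-001: agaaaactgaaaATGgtgttttcgatgtgg
Tlr7-002: cacaatcacgtcATGgtgttttcgatgtgg

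The upstream start codon is also part of the RNA of Tlr7-002, where 146 bases separate it from the start codon used in that model, out of frame. Tlr7-003 and Tlr8-002, both with the 3′ end of the coding sequence not found, begin at further start codons. Tlr8-002 begins at 167245843, inside the large exon.

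Other members have alternative coding sequences of their own. Tlr5-201 begins at 182972435 in the 38-base exon, and the single-exon transcript Tlr5-002, whose support level is NA, begins at 182973175 in the large exon. The latter lies 14 codons downstream in the same frame and leaves 859 of 873 codons. Its start window is given to compare with that of Tlr5 above.
Tlr5-002: tcccataggatcATGgcatgtcaacttgac

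Tlr4-004 departs further. It keeps the first 2 coding exons of Tlr4, 257 bases, then skips the 2248-base exon and joins exons that begin at 66924366 and 66929018, with 123 and 82 coding bases. The result is a reading frame of 154 codons against 835, in a transcript with the best support level, 1. The first of these distant exons lies 81.6 kb behind the end of Tlr4-001. Because of it the Tlr4 gene spans 102701 bases, 6.75 times the 15217 of Tlr4-001. No other receptor gene spans more than 25630 bases. At least 2 distinct coding sequences were annotated for 3 of 5 surface receptors (Tlr4, Tlr5, Tlr6) and 2 of 5 endosomal receptors (Tlr7, Tlr8), truncated models included. This is near the 43.6% found over all genes and reads as no feature of the family.

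**Figure D2:**
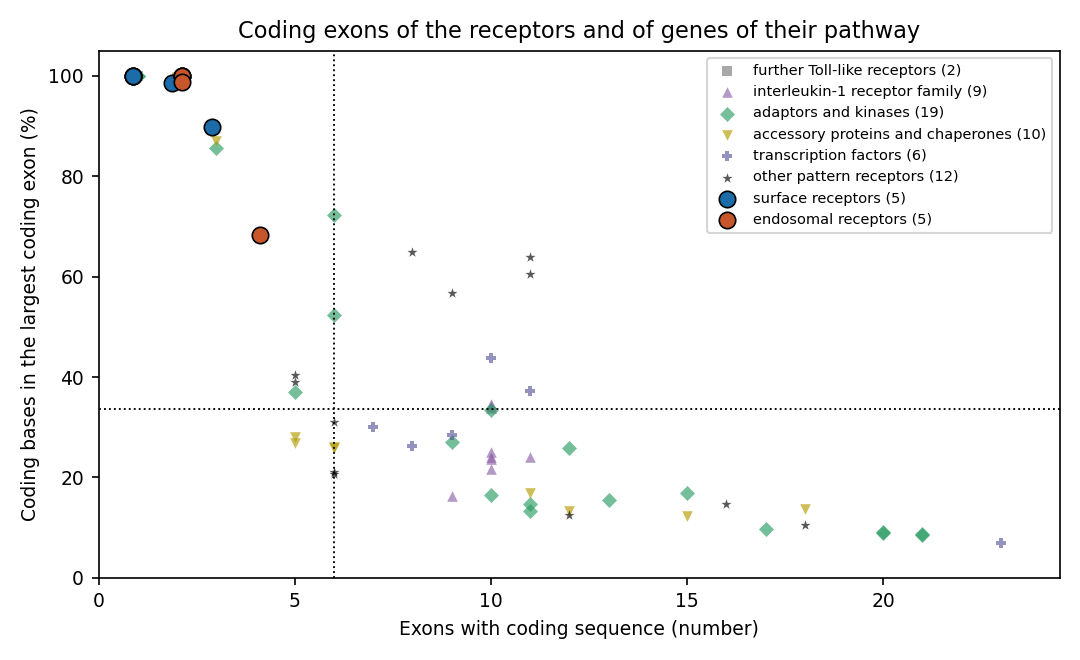
Share of coding bases in the largest coding exon against the number of coding exons, with 1 point per gene; the 5 surface and 5 endosomal receptors are large circles, shifted slightly sideways so that they can be told apart, and dotted lines mark the medians over all protein-coding genes (6 exons, 33.5%). All 10 receptors lie left of the median, and 8 of them lie above 95%.

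The compact layout was not shared by most genes that work with the receptors or in other pattern-receptor pathways. The interleukin-1 receptor family also has a cytoplasmic TIR domain, but its 9 genes had 9 to 11 coding exons and 0 had a single one. Among 19 adaptors and kinases the median was 11. The 2 genes with a single coding exon were Ticam1 (2196 coding bases), which encodes the adaptor TRIF of Tlr3 and Tlr4, and Ticam2 (696), which links TRIF to Tlr4. The most divided were the kinase genes Chuk and Ikbkb with 21 coding exons each. Accessory proteins and chaperones (10 genes) had a median of 6 and a highest value of 18 in Hsp90b1, which encodes the chaperone gp96. The 6 transcription factors had a median of 9.5, with 23 in Nfkb1. The 12 genes of other pattern-receptor pathways had a median of 8.5, with 18 in Ddx58, which encodes RIG-I, and 0 had a single coding exon. Cd180, a surface relative of Tlr4 without a TIR domain, has 3 coding exons with 90, 167 and 1726 bases. Its first 2 lengths are the same as those of Tlr4, an observation made after the values were seen.

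The other mouse receptors of the family, Tlr11 and Tlr12, have 1 or 2 coding exons and 0 noncoding 5′ exons. They were placed in neither group here, so the counts by group leave them out. The count of 0 endosomal genes with a single coding exon thus holds for the 5 listed genes only. It would change if Tlr12 were placed with them. Tlr12 has 2718 coding bases in 1 exon. Tlr11 has 10 and 2783 coding bases in Tlr11-002, while Tlr11-001 has its 2778 coding bases in 1 exon.

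Most receptor genes in both groups have exons that lie wholly before the start codon. At least 1 exon made only of 5′ untranslated sequence was found in 4 of 5 surface and 4 of 5 endosomal receptors, against 31.2% of genes. At least 2 were found in 3 surface (Tlr1, Tlr2, Tlr5) and 2 endosomal receptors (Tlr3, Tlr7), against 6.78%. The counts were 3 in Tlr1, Tlr3 and Tlr7, 2 in Tlr2 and Tlr5, 1 in Tlr6, Tlr8 and Tlr13, and 0 in Tlr4 and Tlr9. An exon that lies wholly behind the coding sequence was found in 0 of 10 receptors, and in only 4.1% of all genes.

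The choice of transcript matters for these counts. In Tlr8, Tlr8-201 has 0 noncoding 5′ exons where Tlr8-001 has 1. In Tlr7, Tlr7-001 has 1 where Tlr7-002 has 3. In Tlr5, Tlr5-002 has 0 where Tlr5-201 has 2. Tlr1 and Tlr3 also had a protein-coding transcript with fewer, 2 against 3. With the lowest value of each gene, Tlr5 and Tlr8 would leave the count of genes with at least 1.

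The untranslated leader was longest in Tlr2 with 511 bases and Tlr1 with 471, and shortest in Tlr9 with 106. The median was 287 bases at the surface, 274 in endosomes and 129 over all genes. At least 1 ATG triplet stood before the start codon in 5 of 5 surface and 4 of 5 endosomal receptors, against 51.9% of the 14881 genes read. The leaders of the receptors are longer than the median leader, and the part of length in this count was not tested. Tlr1 had 10 such triplets, Tlr3 and Tlr13 had 9 each, Tlr7 had 7, and Tlr9 had 0.

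The 10 genes have 31 annotated transcripts, of which 22 are protein-coding. More than 1 distinct transcript start was annotated for 4 of 5 genes in either group, against 58.4% of genes, a share that gives little room for a difference. With protein-coding transcripts only, the count was 4 at the surface and 3 in endosomes, where Tlr13 drops to 1 start, against 46.2% of genes. Tlr7 had 6 starts, Tlr8 had 5, Tlr4 and Tlr5 had 4, Tlr1 had 3, and Tlr3, Tlr6 and Tlr13 had 2. Tlr3 had 8 in GENCODE M21. From protein-coding transcripts alone there were 5 in Tlr7, 3 in Tlr8 and 2 in Tlr1, Tlr4 and Tlr5. Tlr2 and Tlr9 had 1 start and 1 transcript each. Many of these starts are neighbours. After starts within 50 bases were merged, Tlr1, Tlr3, Tlr4, Tlr5 and Tlr8 had 2 and the other 5 genes had 1. The median was then 2 at the surface, 1 in endosomes and 2 over all genes. The 6 starts of Tlr7 lie within 115 bases of each other, whereas the starts of Tlr5 lie up to 17389 bases apart because Tlr5-002 begins close to the large exon. The protein-coding starts of Tlr1 lie 800 bases apart.

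RefSeq start sites of the same build could be matched for 8 of the 10 genes. They fell on a deposited start in Tlr5, Tlr8 and Tlr9, and within 62 bases in Tlr1 and 46 in Tlr13. They lay 159 bases from the nearest deposited start in both Tlr2 and Tlr3. Tlr6 had 2 RefSeq starts, at 1 base and 881 bases from the nearest deposited start.

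**Figure D3:**
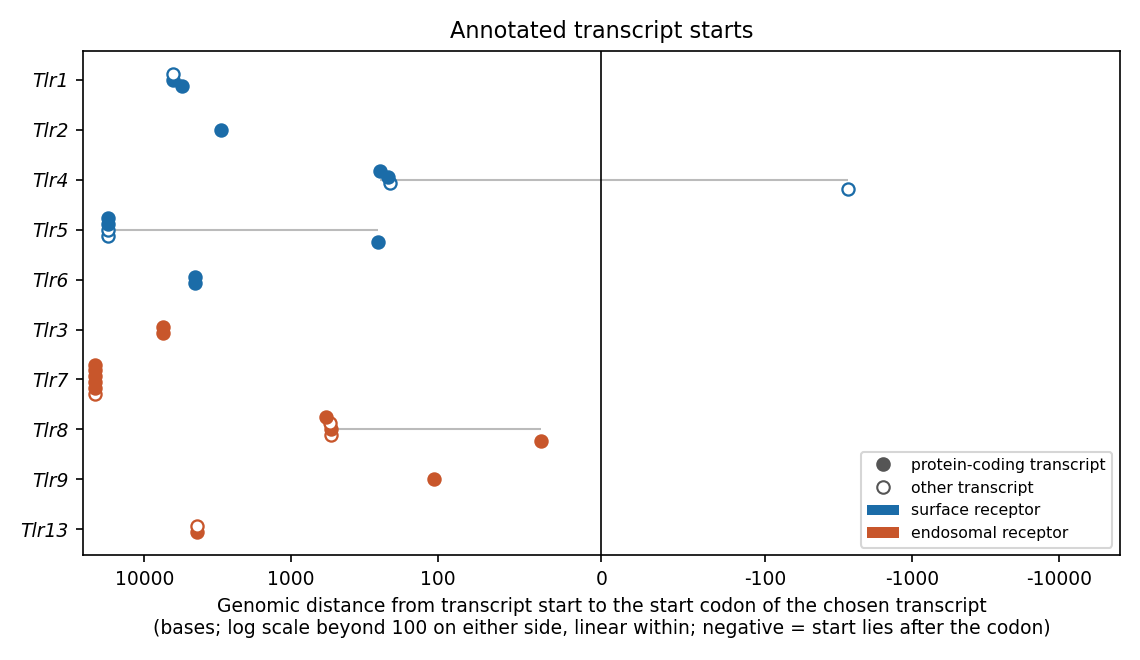
Genomic distance in bases from each annotated transcript start to the start codon of the chosen transcript, on an axis that is logarithmic beyond 100 bases; filled circles are protein-coding transcripts, open circles other transcripts, and circles of a gene are spread vertically. Tlr7 has 6 starts in 1 cluster, and Tlr5 has 1 start far from its other starts.

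The genes lie on 7 chromosomes, and 2 pairs are neighbours. Tlr6 and Tlr1 lie 18467 bases apart on chromosome 5, and Tlr7 and Tlr8 lie 40599 bases apart on chromosome X. In either pair both genes are on the minus strand, the genes are transcribed in the same direction, and 0 annotated genes of any class lie between them. Tlr6 stands upstream of Tlr1, and Tlr7 upstream of Tlr8. Tlr13 is on the same chromosome as Tlr7 and Tlr8 but 61.1 Mb away. Only Tlr1 has another receptor as its nearest protein-coding gene. Tlr6 lies closer to Fam114a1, 9973 bases away in divergent orientation, Tlr7 closer to Prps2 (15763 bases) and Tlr8 closer to Tmsb4x, the thymosin beta 4 gene (33380 bases).

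The remaining receptors stand alone among unrelated genes. Tlr9 has the closest neighbour, the heme synthesis gene Alas1, whose 3′ end faces its own at 6571 bases, with Twf2 at 7208 bases on the other side. The nearest gene of Tlr3 is Fam149a at 13373 bases, and that of Tlr13 is the copper transporter gene Atp7a at 18277 bases. Tlr2 has D930015E06Rik at 55887 bases and Sfrp2 at 61955, and Tlr5 has Susd4 at 58196 and Disp1 at 110221. Tlr4 is the most isolated from other protein-coding genes, with Astn2 at 422972 bases and Brinp1 at 1831229. A distance as large as that from Tlr4 to Astn2 was found for 1.11% of protein-coding genes.

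All 10 distances were above the median of 5423 bases over protein-coding genes, and the group medians were 55887 bases at the surface and 15763 in endosomes. The ranges, 9973 to 422972 and 6571 to 33380, overlapped. Within 250 kb Tlr4 had 0 protein-coding genes, which held for 2.04% of genes. Tlr9 had 16, the most of the 10, against a median of 9 over all genes. When genes of every class are counted, the lincRNA gene Gm38079 lies 231 bases from Tlr5 and the pseudogene Gm7115 lies 4052 bases from Tlr2. The nearest gene of Tlr4 is then the pseudogene Gm11220 at 102039 bases, and that of Tlr13 the pseudogene Gm14856 at 15820.

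**Figure D4:**
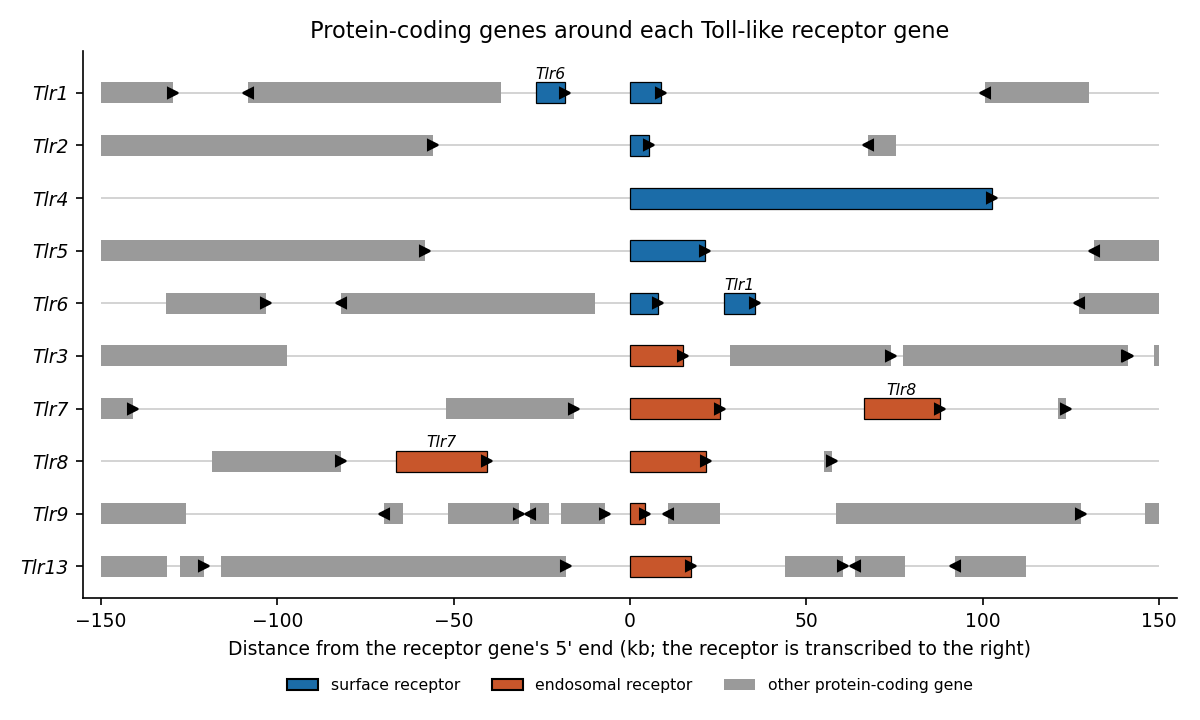
Protein-coding genes within 150 kb of the 5′ end of each receptor gene, in kb, with every receptor drawn as transcribed to the right; black arrowheads mark the 3′ end of each gene, and genes that run past the edge have none there. Tlr6 and Tlr1, and Tlr7 and Tlr8, stand head to tail, and no other gene is drawn around Tlr4.

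The neighbouring pairs were also the closest in sequence. The coding sequences were translated and aligned over their whole length, and identity is given as the percent of residues of the shorter protein. Tlr1 and Tlr6 had 66.0% identical residues and Tlr7 and Tlr8 had 43.3%, the 2 highest values of the 45 pairs. Tlr7 with Tlr9 had 36.8% and Tlr8 with Tlr9 35.8%. The median of all pairs was 28.8% and the lowest 25.7%. The highest value between a surface and an endosomal receptor was 32.3%, for Tlr4 and Tlr13. The 3 genes with the start codon alone in an exon thus stand in the 3 closest pairs of endosomal receptors. The 3 surface genes with 1 coding exon are each closest to another gene of this kind, Tlr1 to Tlr6, Tlr6 to Tlr1, and Tlr2 to Tlr1 with 32.1%. For Tlr2 the lead is small, with 31.0% for Tlr13. Layout and closest relative did not go together in every gene. Tlr4 with 3 coding exons and Tlr13 with 2 were closest to each other across the groups. Tlr3 with 4 was closest to Tlr7 with 2, at 30.2%. Tlr5, a surface receptor, was closest to the endosomal Tlr8, at 29.6%. Over the last 150 residues, a stretch that belongs to the cytoplasmic end, the values were 80.7% for Tlr1 and Tlr6 and 52.7% for Tlr7 and Tlr8.

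Identity between Tlr1 and Tlr6 was not even along the gene. In steps of 150 coding bases along Tlr1, nucleotide identity lay between 44% and 71.3% over bases 1 to 1350. It was between 98% and 100% over bases 1351 to 2100, 88% over bases 2101 to 2250 and 61.5% at the end. The first part encodes most of the leucine-rich repeats. Tlr7 and Tlr8 had no such stretch, and their steps lay between 32% and 67.3%. The longest run of identical bases common to Tlr1 and Tlr6 had 229 bases, against at most 16 in any other pair. It lies in the single coding exon of both genes, at chr5:64925537-64925765 in Tlr1 (coding bases 1468 to 1696) and at chr5:64953828-64954056 in Tlr6 (coding bases 1507 to 1735). It is shown because a 75-base read from it fits both genes.
Tlr1 and Tlr6: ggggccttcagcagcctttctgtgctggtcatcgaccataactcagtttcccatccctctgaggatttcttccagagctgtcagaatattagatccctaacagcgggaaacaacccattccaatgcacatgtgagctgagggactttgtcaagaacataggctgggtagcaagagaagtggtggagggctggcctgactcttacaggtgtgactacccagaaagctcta

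**Figure D5:**
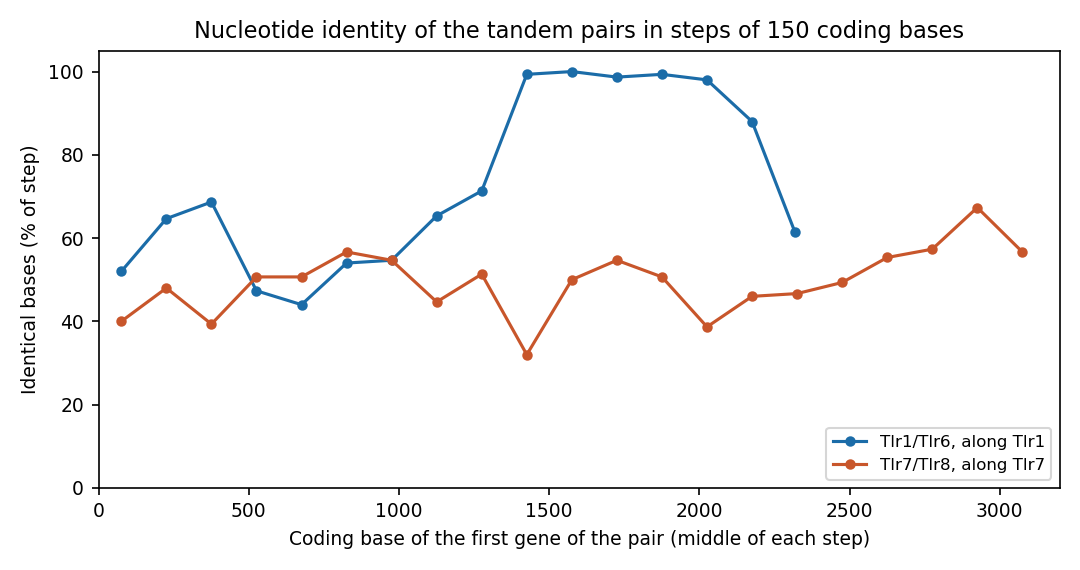
Identical bases in percent of each step of 150 coding bases, for Tlr1 against Tlr6 along Tlr1 and for Tlr7 against Tlr8 along Tlr7, with each point at the middle of its step. Tlr1 and Tlr6 lie between 98% and 100% over coding bases 1351 to 2100, and Tlr7 and Tlr8 stay at or under 67.3%.

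The labels give a read length of 75 bases, and the models show which stretches of that length belong to 1 receptor alone. Exons of 0 of 10 receptor genes overlap exons of another gene in the deposited annotation, against 24.2% of protein-coding genes. In the GENCODE M21 transcripts of the same build, none of the 75-base windows of 7 receptor genes (Tlr2, Tlr4, Tlr5, Tlr7, Tlr8, Tlr9 and Tlr13) occurred in any other gene, which held for 50.7% of protein-coding genes. With windows of 50 bases this count was 6, against 38.6% of genes, since Tlr4 then shared 12 windows. Tlr1 shared 351 of 3307 windows (10.6%), of which 340 were with Tlr6, and the same 340 are 9.25% of the 3677 windows of Tlr6. A further 11 windows of Tlr1 were shared with genes outside the receptors. Its partner genes were 21 in all, Tlr6 included. All 340 lie in the coding sequence, between coding bases 1348 and 2085 of Tlr1, and cover 26.7% of it. A single read within these windows cannot be assigned to Tlr1 or Tlr6 by its own sequence alone. The reads were paired, and whether the other read of a pair would tell the genes apart was not examined. Tlr3 shared 238 of 5561 windows (4.28%), all with Gm45542, an antisense gene on the opposite strand. That gene is in M21 and its identifier is not among those of the deposited annotation. Its M21 exons cover 381 bases of the M21 Tlr3 exons but 106 bases of the deposited Tlr3 exons. The 4.28% thus describes the M21 models of Tlr3, and no such share was computed for the deposited ones.

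Few 75-base windows of these genes cross a splice junction. No read was counted for this. The share of 75-base windows that cross a junction of the chosen transcript was lowest in Tlr6 with 2.05% and Tlr9 with 2.17% and highest in Tlr3 with 10.3%, against a median of 20.2% over all genes. A share as low as that of Tlr6 was found for 13.1% of genes, and one as low as that of Tlr3 for 30.1%. The last exon held 83.5% to 96.9% of the transcript in 9 genes and 34.1% in Tlr3, against a median of 50.5%. Junctions that join the coding sequence are 0 in Tlr1, Tlr2 and Tlr6.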

How the data were processed

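The only file is a gene annotation in GTF form, deposited by the authors. Per the file, its used columns hold start and end coordinates. It has 1500259 lines in all, of which those for exons, coding sequence and codons were read as gene models. Its score column is empty and 0 columns hold a value of a library. Per the submitters' processing notes, the tools included CASAVA 1.8, FastQC, TopHat2, Bowtie2 and Cufflinks, with builds GRCm38 and mm10. No count, normalised value, depth or p-value was used.

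Gene models were read with Python 3.11.15 and numpy 2.4.6. The transcript that stands for a gene is the protein-coding transcript with the longest coding sequence, then the longest transcript, then the lowest identifier. Coding length excludes the stop codon. Transcript starts are distinct 5′ ends over all transcripts, and distances between genes are gaps between gene spans. Sequences, shared windows and translations come from GENCODE M21 transcripts, in which 31 of 31 receptor transcripts were found by identifier and 28 had the same exons. The leader of Tlr3 was read there in the part that matches the deposited model. Translations were aligned globally with Biopython 1.88 (BLOSUM 62, gap scores -11 and -1), and bases were compared codon by codon along that alignment. RefSeq start sites came from its promoter table for GRCm38.p6.

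The code was checked on 400 made-up gene models and 200 made-up interval overlaps, all read correctly. All 10 receptors are named, with Tlr11, Tlr12, the nearest protein-coding genes and, from each pathway list, genes with 1 coding exon and those with the most. Genes named beyond this rule are given as such in the text or the closing section. Members and lists were chosen with earlier results of these data known. The other settings tried were the transcript used, the share threshold, merging of starts, the genes counted as neighbours, the overlap minimum, the window length, the stretch aligned and the annotation release.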

Additional observations from a re-analysis of the deposited data

How the results depend on the processing

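The counts by group for a single coding exon were the same under each setting tried for them, GENCODE M21 included. So were those for coding exons of at least 2000 bases, where M21 was the only other setting. The longest transcript was not tried for either count. That of Tlr5 is Tlr5-002, with 1 coding exon of 2577 bases, so the single-exon count at the surface would rise with it. The count of receptors with a receptor as nearest neighbour was 1 with protein-coding genes and with all genes. The count with at least 95% of the coding sequence in 1 exon was 4 in either group, also at 90%, with the longest transcript and in M21, and 3 in either group at 99%. At least 2 starts were counted in 4 receptors of either group, but in 3 surface and 2 endosomal receptors after starts within 50 bases were merged. Merged in this way, the median over all genes was 2 starts. The share of genes with a single coding exon was 16.8%, against 3.46% among genes with at least 2000 coding bases, a setting chosen after seeing the data that leaves out shorter genes, and 11.7% without olfactory and vomeronasal receptors. Of 115 values of single receptors or pairs under another setting, 35 moved. Among them the largest coding exon of Tlr5 held 100% in its longest transcript, that of Tlr4 held 83.0% over all its coding transcripts, and Tlr3 had 8 starts in GENCODE M21 against 2. The use of M21 for starts, exon size and lone start codons was also chosen after seeing the data. The start codon stood alone in 1.47% of genes there, against 1.4%. No paired analysis was possible because the groups have a single library each and the file holds none of their values, so leaving out a library could not be tried either. Expression settings were not run. Depth limits no value printed here.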

Other observations

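Single transcripts of the receptors carry unusual features. The retained-intron transcript Tlr13-002 has an annotated second exon of 1 base. In the interleukin-1 receptor family, Il1r1 also has a first coding exon of 3 bases, followed by 10 more coding exons. P2ry14 and Sucnr1, both encoding receptors coupled to G proteins, are further genes with 2 coding exons of which the first holds the start codon alone, and their other coding exons have 1038 and 948 bases. The ubiquitin-like gene Isg15 belongs to the same set with 480 bases. All of these were named after their values were seen.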
